A study of Homo sapiens with 4 samples.

Results

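The ion and metal solute carriers are membrane proteins that move bicarbonate, protons, sodium, chloride, phosphate, sulfate, calcium, zinc, iron, copper, manganese or magnesium across cell membranes. They were taken by symbol and biotype alone, as the protein-coding genes of 15 solute carrier (SLC) families, SLC4, SLC8, SLC9, SLC11, SLC12, SLC13, SLC20, SLC24, SLC26, SLC30, SLC31, SLC34, SLC39, SLC40 and SLC41. This gave 89 of the 33478 genes in the table, and no expression value entered the choice. The cells were MHCC-97H, a human hepatocellular carcinoma line, carrying either a control short hairpin RNA (labelled SH-NC) or one against UCK2, a kinase that salvages uridine and cytidine (labelled SH-UCK2-B), with 2 libraries of each kind. No other treatment, dose or time is given in the labels, both hairpin libraries carry the same letter B, and the labels do not tell whether the libraries are separate cultures. The p-values below therefore measure only the spread between these libraries, which may be technical.

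The 2 zinc families work against each other. SLC39 carriers (ZIP proteins) bring zinc into the cytosol from outside or from organelles, and SLC30 carriers (ZnT proteins) take it out of the cytosol. Iron enters the cytosol through SLC11A2 and leaves the cell through SLC40A1 (ferroportin), which in the liver is controlled by the hormone hepcidin, and copper enters through SLC31A1. SLC4 and SLC26 carriers exchange bicarbonate, chloride and sulfate, SLC9 carriers exchange sodium for protons, SLC12 carriers couple chloride to potassium or sodium, SLC20 and SLC34 carriers bring in phosphate, and SLC41 carriers move magnesium. Zinc acts back on some of these genes through MTF1, a transcription factor that binds metal response elements in promoters.

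For this reason the promoters of 4 carriers are shown: the most abundant zinc importer (SLC39A1), the plasma membrane zinc exporter known as an MTF1 target (SLC30A1), the iron exporter (SLC40A1) and the tested carrier with the largest positive group difference (SLC39A11). Each sequence is the 250 bases before a RefSeq transcription start (GRCh38.p14), written 5′ to 3′ on the strand of the gene, which is minus for all 4. Capitals mark the core of the metal response element, searched as TGCACNC and TGCGCNC on both strands. The regions are chr1:153963538-153963787, chr1:211579162-211579411, chr2:189580787-189581036 and chr17:73092689-73092938, in that order.
SLC39A1: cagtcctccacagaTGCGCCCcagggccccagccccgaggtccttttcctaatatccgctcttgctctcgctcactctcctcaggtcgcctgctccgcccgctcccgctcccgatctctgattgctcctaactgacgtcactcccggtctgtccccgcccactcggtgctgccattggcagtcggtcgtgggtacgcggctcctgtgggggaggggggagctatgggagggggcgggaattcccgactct
SLC30A1: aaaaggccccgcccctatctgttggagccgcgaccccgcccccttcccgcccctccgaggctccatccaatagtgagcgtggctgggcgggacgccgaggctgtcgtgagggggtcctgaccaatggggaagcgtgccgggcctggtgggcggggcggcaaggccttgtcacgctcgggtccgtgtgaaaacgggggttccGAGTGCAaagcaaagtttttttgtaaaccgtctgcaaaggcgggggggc
SLC40A1: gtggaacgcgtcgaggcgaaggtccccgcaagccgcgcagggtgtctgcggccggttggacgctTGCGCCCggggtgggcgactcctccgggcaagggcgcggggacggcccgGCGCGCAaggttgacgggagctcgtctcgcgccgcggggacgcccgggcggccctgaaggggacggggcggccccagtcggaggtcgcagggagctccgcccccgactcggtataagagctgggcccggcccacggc
SLC39A11: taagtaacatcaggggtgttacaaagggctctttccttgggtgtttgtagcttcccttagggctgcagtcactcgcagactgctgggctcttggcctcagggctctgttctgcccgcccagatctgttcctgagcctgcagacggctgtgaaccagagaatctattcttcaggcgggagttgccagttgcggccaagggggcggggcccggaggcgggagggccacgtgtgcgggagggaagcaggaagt
SLC40A1 holds 2 matches, SLC39A1 and SLC30A1 hold 1 each and SLC39A11 holds 0 in this window. The SLC39A1 window shown lies before a RefSeq start inside the gene span. So does the SLC40A1 window, as the deposited table ends that gene at 189583758. The SLC39A11 window overlaps the end of its gene in the deposited table, at 73092712. The window of the other RefSeq start of SLC39A1, from 153968185 to 153968434, adjoins the end of the gene in the deposited table and has no match. Of the 89 carriers, 73 had a promoter in the RefSeq table, with 111 starts in all. At least 1 match lay in 27.0% of these 111 promoters, against 24.8% of all 35116 promoters and 28.4% of the 22199 of protein-coding genes. Among the SLC30 carriers it was 6 of 11 promoters and among the SLC39 carriers 5 of 19. A match is a run of letters and does not show binding of MTF1, which measured 6.10 and 4.46 TPM in the controls, against 6.54 and 5.89 TPM with the UCK2 shRNA.

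Levels are TPM as deposited by the authors, a transcript abundance corrected for gene length, so levels of different genes can be compared. Values are given in the order replicate 1, replicate 2, controls first. In bulk RNA, fewer cells with a transcript and less of it in each cell cannot be told apart. TPM sums over the table were 850379 and 850534 in the controls against 676811 and 643063 in the UCK2 shRNA libraries, and the read depth behind them is unknown. UCK2 itself measured 135.7 and 93.6 TPM in the controls, against 120.5 and 67.8 TPM in the UCK2 shRNA libraries, so its level did not separate the groups and directions rest on the titles of the libraries. The descriptions of 2 libraries differ from their titles: control replicate 2 is described as MHCC-98H, and UCK2 shRNA replicate 2 as UCK3. Of the 17 hepatocyte and hepatoma markers, 14 averaged at least 1 TPM, with ALB at 18.6 to 29.5 TPM and APOA2 at 0 in both controls. Of 13 retina markers, read because the extraction text of the labels names retinas, 2 did so. The summed retina level was 9.71 and 11.2 TPM in the controls, against 9.03 and 8.84 TPM in the UCK2 shRNA libraries. The fibroblast list summed to 29.2 and 7.32 against 21.6 and 16.4 TPM, most of it LUM. Of the leukocyte markers PTPRC stayed under 1 TPM throughout, while CD68 measured 44.5 and 54.6 against 43.7 and 45.6 TPM. The endothelial marker PECAM1 measured 24.5 and 20.4 against 20.7 and 21.8 TPM, while KDR, VWF, TEK and CDH5 averaged 0.502, 0.300, 0.0312 and 0.00383 TPM. The biliary marker KRT19 measured 176 and 267 against 140.1 and 130.3 TPM. Of the other biliary markers, KRT7 averaged 8.94, SOX9 3.43, CFTR 1.83 and EPCAM 0.221 TPM. The part of these markers in the carrier values was not tested.

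Zinc importers made up the largest share of the carrier transcripts. Of the 89 carriers, 49 averaged at least 1 TPM over the 4 libraries and could be tested, 32 averaged at least 10 TPM and 3 at least 100 TPM. The SLC39 family summed to 601 and 602 TPM in the controls, against 486 and 446 TPM in the UCK2 shRNA libraries, which is 34% to 40.4% of the summed level of all carriers in a library. The SLC4 family came next with 252 and 247 against 201 and 199.9 TPM, followed by SLC12 with 221 and 183 against 163 and 183 TPM. The zinc exporters of SLC30 summed to 104 and 68.0 against 70.2 and 72.6 TPM. The groups did not overlap for the SLC39 and SLC4 sums as deposited, and they did for SLC12 and SLC30. The SLC9, SLC26, SLC31 and SLC41 sums were also lower in both UCK2 shRNA libraries. So was the sum of all carriers, at 1684 and 1491 against 1285 and 1309 TPM. Of the 14038 single genes averaging at least 1 TPM, 44.4% did not overlap in this direction. That is a share of genes, and none was taken for sums of other gene sets. Libraries were also put on a common scale by median-ratio scaling, which divides each by the median ratio of its genes to the geometric mean of the 4 libraries. After scaling the SLC39 sums were 507 and 600.3 against 530 and 480 TPM, which overlap. The scaled SLC4 sums, 213 and 246 against 219 and 215 TPM, overlap too. The scaled sums of all carriers were 1420 and 1487 against 1399 and 1411 TPM.

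**Figure D1:**
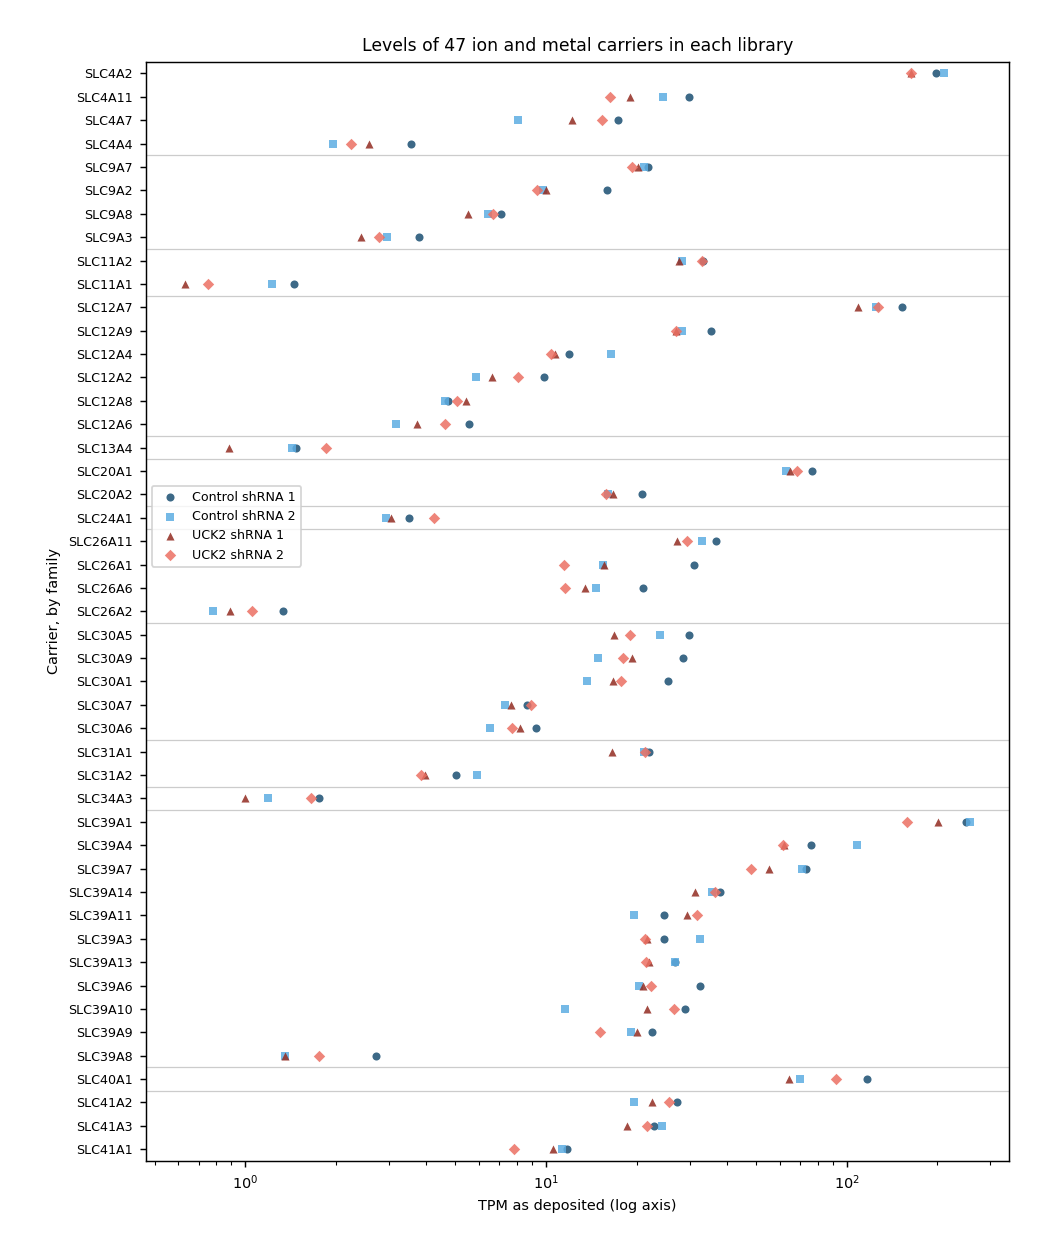
TPM as deposited (log axis) of 47 of the 49 carriers averaging at least 1 TPM, 1 point per library, ordered by family and level. SLC39A1, SLC4A2 and SLC12A7 lie above 100 TPM in every library, and SLC39A10 shows a wide gap between the 2 controls (28.9 and 11.5 TPM).

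**Figure D2:**
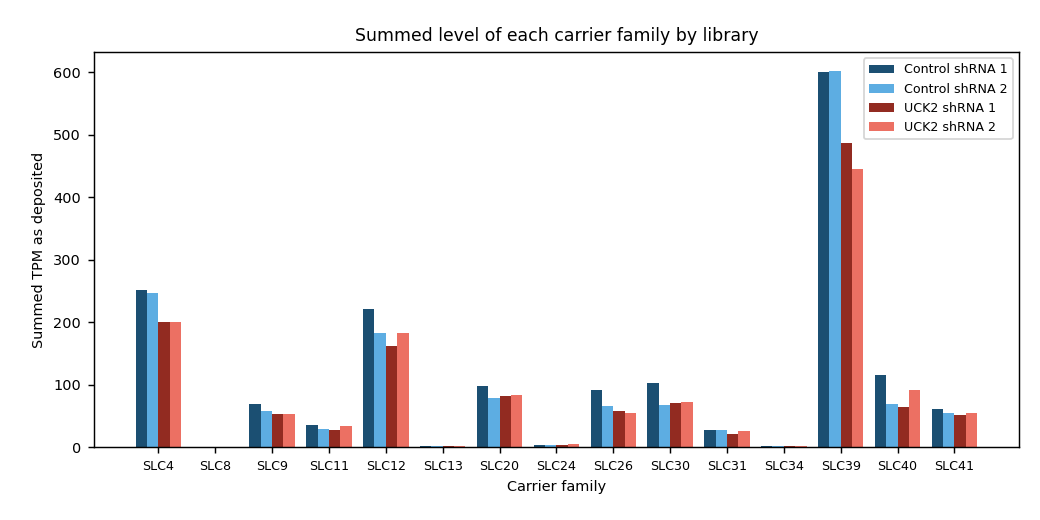
Summed TPM as deposited of each of the 15 carrier families, 1 bar per library. The SLC39 bars reach 601 and 602 TPM in the controls, against 486 and 446 TPM in the UCK2 shRNA libraries, and SLC8, SLC13 and SLC34 are near 0.

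No carrier passed the test between the groups. With limma on log2(TPM + 1), 0 of 49 carriers had an adjusted p under 0.05, as had 0% of the 14038 genes tested. The smallest adjusted p among the carriers was 0.294. At an unadjusted p under 0.05, 5 carriers were lower in the UCK2 shRNA libraries (SLC39A1, SLC39A7, SLC4A11, SLC39A4 and SLC30A5), or 10.2%, against 14% of all genes, and 0 were higher, against 1.38%. No setting without a left-out library called a carrier with adjustment. The number lower was 10 without control replicate 2 (16.3% of all genes), 2 without UCK2 shRNA replicate 1 (9.77%) and 0 without UCK2 shRNA replicate 2 (3.01%). Without control replicate 1, 3 carriers were higher without adjustment (8.61% of all genes). SLC39A10 then passed (limma adjusted p = 0.0449), as did 1.72% of all genes in the higher and 0.769% in the lower direction. Leaving out a library leaves its group with 1, so the spread then comes from the other pair and from limma's pooling over genes, and the lone library is assumed to vary alike.

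Over all levels the median difference of the carriers was that of the whole table. Their median log2 difference, UCK2 shRNA minus control, was -0.22 as deposited, and so was the median of all genes tested. A difference below 0 was found in 41 of 49 carriers (83.7%) and in 74.7% of all genes. After scaling the medians were 0.01 and -0.01, and 22 of 49 carriers (44.9%) lay below 0, against 50.8% of all genes. With equal sums over protein-coding genes 12 carriers lay below 0, so the sign of a small difference depended on the scaling. At matched levels the shares differed in no single direction. Among genes averaging 20 to 100 TPM, 40% of the 20 carriers lay below 0 after scaling (median 0.01), against 66% of all genes (median -0.08). As deposited it was 85% against 90.4%. At 5 to 20 TPM, 53.3% of the 15 carriers lay below 0 after scaling, against 45.4% of all genes, and 80% against 74.4% as deposited. At 1 to 5 TPM, 81.8% of the 11 carriers lay below 0 as deposited, against 54.7% of all genes, and 36.4% against 33.9% after scaling. The groups did not overlap for 20 carriers in the lower direction (40.8%, against 44.4% of all genes) and for 2 in the higher direction, SLC39A11 and SLC12A8 (4.08%, against 5.46%). After scaling this held for 5 carriers in the lower direction (10.2%, against 15.5%) and for 8 in the higher (16.3%, against 16%). At an unadjusted p under 0.05 after scaling, 0 carriers were lower (1.42% of all genes) and 1 was higher, SLC39A11 (3.97% of all genes), while 0.0641% of all genes passed with adjustment.

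**Figure D3:**
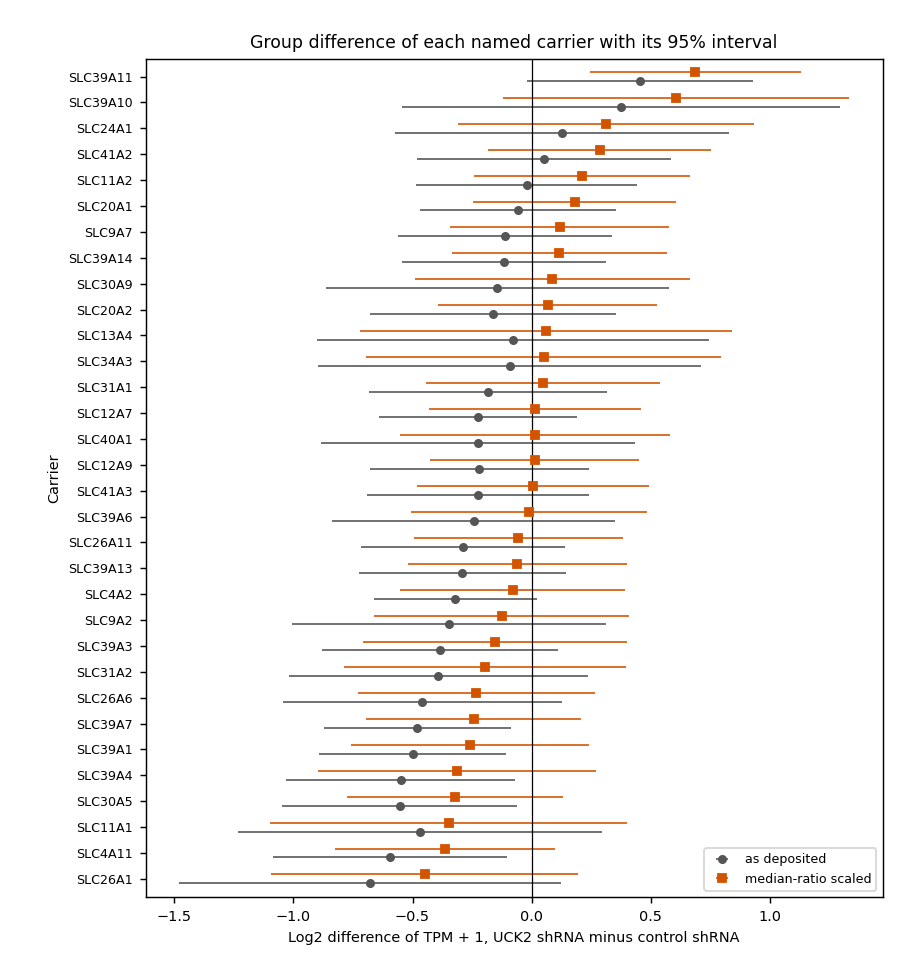
Log2 difference of TPM + 1 (UCK2 shRNA minus control shRNA) with its 95% interval for the 32 tested carriers that the naming rule takes, as deposited (circles) and after median-ratio scaling (squares). Scaling moves each value up by about the shift of the table, and after it only the interval of SLC39A11 lies off 0.

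Among the zinc importers, SLC39A1 (ZIP1, an importer of the plasma membrane) was the most abundant carrier of all. It is ENSG00000143570, on chromosome 1 from 153959099 to 153968184 (hg38, minus strand). SLC39A1 measured 249.7 and 255.7 TPM in control replicates 1 and 2, against 200.1 and 159.0 TPM in UCK2 shRNA replicates 1 and 2. Both UCK2 shRNA libraries lay below both controls. The log2 difference of SLC39A1 was -0.50 ± 0.17 (SE, limma adjusted p = 0.294), and -0.26 after scaling, where the groups overlapped (adjusted p = 0.955). SLC39A4 (ZIP4), the importer that takes up dietary zinc in the gut, measured 75.9 and 108.0 against 62 and 61.1 TPM. Its UCK2 shRNA values were nearly equal while its controls differed 1.42-fold, and its log2 difference was -0.55 ± 0.20 (adjusted p = 0.297; scaled -0.31).

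SLC39A7 (ZIP7) releases zinc from the endoplasmic reticulum and Golgi into the cytosol. It measured 73.4 and 70.9 TPM in the controls, against 55.0 and 48.1 TPM in the UCK2 shRNA libraries, which did not overlap before or after scaling. The log2 difference of SLC39A7 was -0.48 ± 0.17 (adjusted p = 0.294; scaled -0.24, adjusted p = 0.955). SLC39A3, a close relative of SLC39A1, measured 24.7 and 32.6 against 21.6 and 21.3 TPM (log2 difference -0.39 ± 0.21). SLC39A13, of the secretory pathway, measured 26.9 and 26.8 against 21.9 and 21.5 TPM (-0.29 ± 0.18). As deposited, SLC39A3 and SLC39A13 were lower in both UCK2 shRNA libraries, and after scaling both overlapped. SLC39A14, which imports zinc, manganese and iron not bound to transferrin and is a known liver carrier, measured 37.9 and 35.7 against 31.4 and 36.5 TPM and overlapped.

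SLC39A11 stood on the other side. SLC39A11 (ZIP11, ENSG00000133195, chromosome 17 from 72645949 to 73092712, minus strand) measured 24.7 and 19.6 TPM in the controls, against 29.4 and 31.7 TPM in the UCK2 shRNA libraries, and was higher in both. After scaling it was 20.8 and 19.5 against 32.0 and 34.1 TPM. The log2 difference of SLC39A11 was 0.45 ± 0.20 (95% interval -0.02 to 0.93, adjusted p = 0.338), or 0.69 after scaling (unadjusted p = 0.00686, adjusted p = 0.610). Without each library in turn it was between 0.30 and 0.61 as deposited and between 0.64 and 0.73 after scaling, and since the groups did not overlap its sign could not turn. An antisense row, RP11-171G2.1, overlaps SLC39A11 on the opposite strand, and use of strand in counting is not stated.

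SLC39A6 and SLC39A10 form a zinc-importing pair and both differed between the controls. SLC39A10 measured 28.9 and 11.5 TPM in control replicates 1 and 2, against 21.7 and 26.7 TPM in the UCK2 shRNA libraries. Control replicate 2 was alone at the low end, and control replicate 1 exceeded both UCK2 shRNA libraries. The log2 difference of SLC39A10 was 0.37 ± 0.39 (adjusted p = 0.676; scaled 0.61). It was 1.00 without control replicate 1, the setting with 1 control library in which 242 of all genes were called higher (adjusted p = 0.0449), and it turned to -0.25 without control replicate 2. SLC39A6 measured 32.4 and 20.4 against 21 and 22.3 TPM, with control replicate 1 alone at the high end. SLC39A9 averaged 19.2 TPM and SLC39A8, an importer of zinc and manganese, 1.80 TPM. SLC39A5 averaged 0.753 TPM, SLC39A2 was above 0 in control replicate 1 alone, and SLC39A12 was listed at 0 in every library.

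Of the 10 zinc exporters, 5 averaged at least 1 TPM. SLC30A5 (ZnT5), which loads zinc into the secretory pathway as a heterodimer with SLC30A6, measured 29.9 and 23.9 TPM in the controls, against 16.9 and 19.0 TPM in the UCK2 shRNA libraries. The groups did not overlap before or after scaling, and the log2 difference of SLC30A5 was -0.55 ± 0.21 (adjusted p = 0.298; scaled -0.32, adjusted p = 0.955). Its partner SLC30A6 measured 9.26 and 6.53 against 8.17 and 7.72 TPM, and SLC30A7, a Golgi exporter, measured 8.63 and 7.30 against 7.63 and 8.94 TPM. Both overlapped as deposited, and after scaling both lay higher in the UCK2 shRNA libraries (scaled log2 differences 0.24 and 0.27, adjusted p = 0.955 each). SLC30A9, which exports zinc from mitochondria, measured 28.6 and 14.9 against 19.3 and 18.0 TPM. SLC30A1, the exporter of the plasma membrane, measured 25.4 and 13.6 against 16.7 and 17.8 TPM. In both the controls differed more than the groups, with control replicate 1 highest and control replicate 2 lowest. SLC30A8, the zinc carrier of insulin granules, averaged 0.334 TPM, and SLC30A10, a manganese exporter, 0.0435 TPM.

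No iron carrier passed the test. SLC40A1 (ferroportin, ENSG00000138449, chromosome 2) measured 116.2 and 69.8 TPM in the controls, against 64.4 and 91.9 TPM in the UCK2 shRNA libraries, and each group held a high and a low library. Its log2 difference was -0.22 ± 0.28 (adjusted p = 0.729; scaled 0.01), and it ranged from -0.59 without control replicate 2 to 0.14 without control replicate 1. SLC11A2 (DMT1), which moves ferrous iron into the cytosol, measured 33.4 and 28.3 against 27.7 and 33.1 TPM (-0.02 ± 0.20; scaled 0.21). SLC11A1, the macrophage paralog, measured 1.46 and 1.23 against 0.630 and 0.755 TPM, and its groups did not overlap with or without scaling (-0.47 ± 0.32, adjusted p = 0.507). At such a level the added 1 TPM understates the ratio. SLC11A1 averaged 1.02 TPM over the 4 libraries, just above the filter, while its UCK2 shRNA values both lay under 1 TPM. Its entry into the test thus rested on its control values, and no direction is drawn from it. The copper importer SLC31A1 measured 21.9 and 21.1 against 16.6 and 21.3 TPM, and SLC31A2, its intracellular relative, 5.03 and 5.90 against 3.97 and 3.85 TPM. SLC31A2 overlaps FKBP15 and SLC31A1 overlaps CDC26 on the opposite strand.

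No magnesium carrier passed the test. SLC41A2 measured 27.3 and 19.6 against 22.5 and 25.6 TPM, SLC41A3 22.9 and 24.2 against 18.5 and 21.6 TPM, and SLC41A1, a sodium-magnesium exchanger, 11.7 and 11.3 against 10.6 and 7.83 TPM. Their log2 differences were 0.05 ± 0.23, -0.23 ± 0.20 and -0.30 ± 0.25 (scaled 0.28, 0.0045 and -0.08). For each the 95% interval as deposited included 0.

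Of the SLC4 and SLC26 carriers, SLC4A2 (AE2), the chloride-bicarbonate exchanger of hepatocytes and bile duct cells, had the most abundant transcript. SLC4A2 measured 197.6 and 210.8 TPM in the controls, against 163.3 and 163.3 TPM in the UCK2 shRNA libraries. The UCK2 shRNA libraries were both lower as deposited, with a log2 difference of -0.32 ± 0.15 (adjusted p = 0.346), and the groups overlapped after scaling (-0.08). SLC4A11, a proton and water carrier of the corneal endothelium that does not carry bicarbonate (ENSG00000088836, chromosome 20), measured 29.8 and 24.5 against 19.0 and 16.3 TPM. The groups of SLC4A11 did not overlap with or without scaling, and its log2 difference was -0.59 ± 0.21 (adjusted p = 0.294; scaled -0.36, adjusted p = 0.955). The sodium-bicarbonate cotransporters SLC4A7 and SLC4A4 measured 17.3 and 8.06 against 12.2 and 15.3 TPM, and 3.57 and 1.96 against 2.58 and 2.25 TPM. For both, control replicate 1 was highest and control replicate 2 lowest.

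In the SLC26 family, SLC26A1, a sulfate and oxalate exchanger of the hepatocyte membrane, had the lowest log2 difference of the carriers tested. It measured 31.1 and 15.5 TPM in the controls, against 15.6 and 11.5 TPM in the UCK2 shRNA libraries, and the value of control replicate 2 lay just below that of UCK2 shRNA replicate 1. The log2 difference of SLC26A1 was -0.68 ± 0.34 (95% interval -1.48 to 0.12, adjusted p = 0.376; scaled -0.45). SLC26A1 overlaps IDUA on the opposite strand and DGKQ on the same strand, so its level is uncertain. Such overlap was common. Of the 89 carriers, 39 overlap another gene of the table on the opposite strand, and so do 17 of the 35 carriers named by rule. Among them are SLC39A1 (CREB3L4), SLC4A2 (CDK5), SLC39A7 (RXRB) and SLC12A9 (EPHB4), and the same uncertainty holds for their levels. SLC26A6, which exchanges chloride for oxalate and bicarbonate, measured 21.1 and 14.6 against 13.5 and 11.6 TPM (-0.46 ± 0.25). SLC26A11, a sulfate carrier that overlaps SGSH on the opposite strand, measured 36.6 and 32.9 against 27.1 and 29.3 TPM (-0.29 ± 0.18).

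The sodium-proton exchangers had log2 differences below 0 in 6 of 6 tested as deposited, against 74.7% of all genes. After scaling it was 4 of 6, against 50.8% of all genes. SLC9A7, of the trans-Golgi network, was the most abundant, with 21.8 and 21.2 against 20.2 and 19.3 TPM (log2 difference -0.11 ± 0.19; scaled 0.12). SLC9A2, an exchanger of apical membranes, measured 16 and 9.79 against 9.99 and 9.30 TPM, with control replicate 1 alone at the high end. SLC9A3, of intestine and kidney, averaged 2.99 TPM.

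Among the cation-chloride cotransporters, SLC12A7 (KCC4) measured 152.6 and 124.6 TPM in the controls, against 109.1 and 127.3 TPM in the UCK2 shRNA libraries (-0.23 ± 0.18, adjusted p = 0.562; scaled 0.01). It exports potassium with chloride, and its groups overlapped. SLC12A9 measured 35.3 and 28.4 against 27.1 and 27.0 TPM (-0.22 ± 0.19; scaled 0.01). SLC12A4 (KCC1) averaged 12.3 TPM and SLC12A2 (NKCC1), which brings chloride in with sodium and potassium, 7.59 TPM. SLC12A8 measured 4.73 and 4.63 against 5.42 and 5.06 TPM, higher in both UCK2 shRNA libraries by a small step (0.14 ± 0.26, adjusted p = 0.837). The kidney cotransporters SLC12A1 and SLC12A3 averaged 0.152 and 0.0665 TPM, and the neuronal SLC12A5 was above 1 TPM in UCK2 shRNA replicate 2 alone (1.10 TPM).

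Of the phosphate importers, the SLC20 carriers had higher transcript levels than the SLC34 carriers. SLC20A1 (PiT1) measured 76.5 and 62.6 TPM in the controls, against 64.9 and 68.1 TPM in the UCK2 shRNA libraries, which overlapped (-0.06 ± 0.17). After scaling it was 64.5 and 62.4 against 70.7 and 73.4 TPM, and the UCK2 shRNA libraries were both higher (0.18, adjusted p = 0.955). SLC20A2 (PiT2) measured 20.8 and 16.1 against 16.6 and 15.9 TPM. The SLC34 cotransporters of kidney, intestine and lung were near 0, with SLC34A3 at 1.76 and 1.19 against 0.995 and 1.66 TPM and SLC34A2 at 0.136 and 0 against 0.133 and 0.522 TPM.

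Carriers of sodium with sulfate, carboxylates or calcium were scarce. SLC13A4, a sulfate cotransporter, measured 1.47 and 1.43 against 0.881 and 1.86 TPM, and SLC13A3, which takes up dicarboxylates, measured 0.204 and 0.484 against 0.293 and 0.469 TPM. SLC13A5, the citrate importer of hepatocytes, averaged 0.0962 TPM. Of the hepatocyte markers, APOB, FGG and APOA2 were also under 1 TPM (0.737, 0.623 and 0.154 TPM), while ALB averaged 23.5 TPM. SLC24A1, the sodium-calcium-potassium exchanger of rod photoreceptors, measured 3.51 and 2.95 against 3.05 and 4.24 TPM (0.13 ± 0.30), and its gene overlaps DENND4A on the opposite strand. SLC24A3 measured 0.398 and 0.229 against 0.207 and 0.199 TPM, and none of the 3 sodium-calcium exchangers of SLC8 averaged 1 TPM. SLC13A2 was listed at 0 in every library, as was SLC39A12. Of the 40 carriers under 1 TPM on average no test is given.

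The 2 controls differed in most carriers. As deposited, control replicate 1 was above control replicate 2 for 41 of 49 carriers (83.7%), against 68.9% of all genes, and after scaling for 29 (59.2%), against 49.3%. The median size of the gap between the controls was 0.23 on the log2 scale after scaling and that between the UCK2 shRNA libraries 0.15, against 0.30 and 0.22 for all genes. Control replicate 1 was highest of the 4 libraries and control replicate 2 lowest in SLC30A1, SLC30A9, SLC4A4 and SLC4A7 among others, while SLC39A4, SLC39A3 and SLC12A4 were highest in control replicate 2. What separates the controls was not tested, and the labels give no batch for them.

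**Figure D4:**
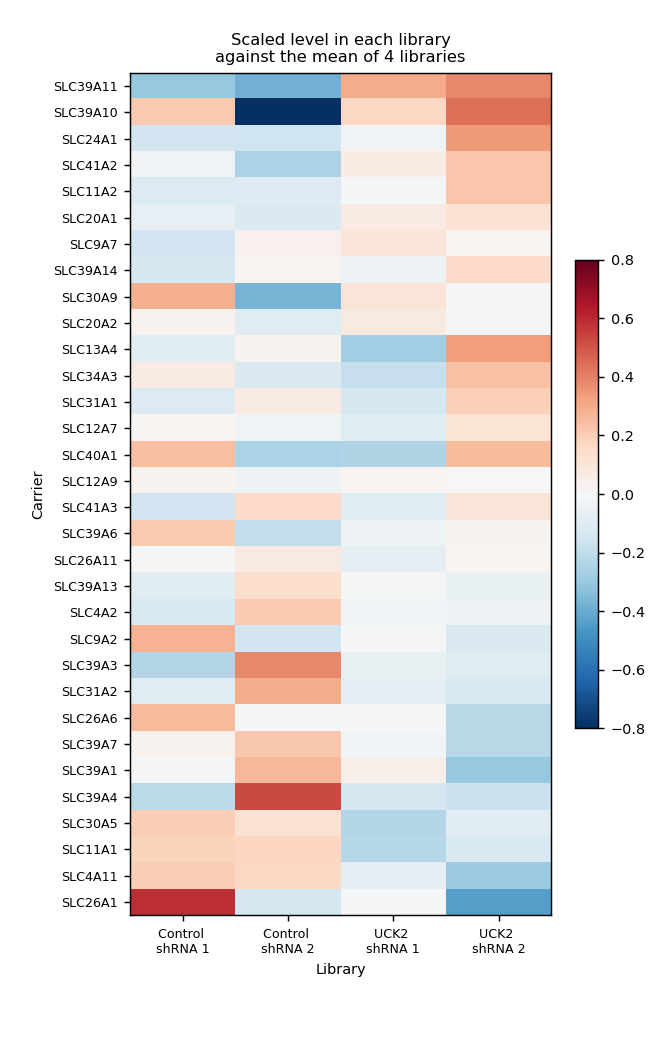
Colour gives log2(scaled TPM + 1) of each library minus the mean of the 4 libraries, for the 32 tested carriers that the naming rule takes, ordered by scaled group difference. SLC39A11 has its 2 UCK2 shRNA libraries above the mean (0.30 and 0.39) and its controls below it, while SLC39A10 is lowest in control replicate 2 alone (-0.81).

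Longer carriers tended to have higher scaled differences. Exonic length was the union of the exons of a gene in GENCODE release 29, matched by Ensembl identifier for all 49 carriers, with a median of 6357 bases against 4454 over all genes. Across the 49 carriers Spearman's rho of length with the scaled log2 difference was 0.41, against 0.11 across all genes with a length and 0.29 across protein-coding genes. The carriers share the same 4 libraries and are not independent, so these are descriptions. The scaled gap between the controls, replicate 1 minus replicate 2, had a rho with length of 0.14 across the carriers, 0.16 across all genes and 0.29 across protein-coding genes. Carriers under the median length had a median scaled difference of -0.06 and the longer ones 0.07. Among the short ones were SLC39A1 (3388 bases), SLC4A11 (4346 bases) and SLC26A1 (4293 bases), and among the long ones SLC4A7 (9616 bases) and SLC11A2 (10145 bases). Others went against the tendency. The short SLC39A11 (5583 bases) and SLC20A1 (5577 bases) had scaled differences of 0.69 and 0.18. The long SLC11A1 (8676 bases) and SLC12A4 (8298 bases) had -0.35 and -0.16. The part of length in any single difference was not tested.

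**Figure D5:**
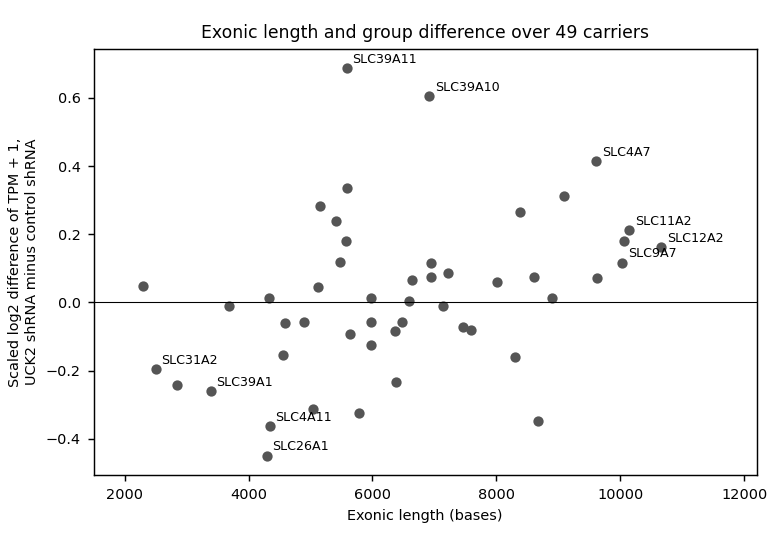
Exonic length in bases against the scaled log2 difference of TPM + 1 (UCK2 shRNA minus control shRNA) for the 49 tested carriers, 1 point per carrier, with 10 labelled. Points tend upward to the right (rho 0.41), and SLC39A11 lies highest at 5583 bases.

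Of 99 partner genes tested in 8 lists, 0 passed in either direction with limma and adjustment, and 13 were lower and 0 higher without it, against 14% and 1.38% of all genes. After scaling 0 were lower and 0 higher without adjustment, in each of the 8 lists. As deposited, the bicarbonate and pH list had 3 of 10 lower at an unadjusted p under 0.05 and 0 higher (CA12, SLC9A3R1 and SLC9A3R2), and after scaling 0. In it the carbonic anhydrase CA12 measured 303 and 267 TPM in the controls, against 235 and 197 TPM in the UCK2 shRNA libraries (-0.40 ± 0.16, adjusted p = 0.319). SLC9A3R1 (NHERF1), the scaffold that holds SLC9A3 at the membrane, measured 270.2 and 320.1 against 195.0 and 167.4 TPM (-0.70 ± 0.17, adjusted p = 0.294; scaled -0.46). Of the sodium pump and chloride list, 2 of 16 were lower without adjustment. ATP1B1, the beta subunit of the sodium pump, measured 208 and 192 against 175 and 173 TPM.

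In the iron list 3 of 18 were lower at an unadjusted p under 0.05 (FTH1, PCBP1 and TF) and 0 higher. The ferritin chains FTL and FTH1 measured 15618 and 20075 against 14670 and 12593 TPM, and 11744 and 13563 against 9377 and 8036 TPM. Their log2 differences were -0.38 ± 0.21 and -0.54 ± 0.19 (adjusted p = 0.406 and 0.294). In the copper list 2 of 9 were lower (ATOX1 and COMMD1), with ATOX1, a copper chaperone, at 158.1 and 179.5 against 135.6 and 112.2 TPM and COX17, which passes copper to cytochrome oxidase, at 158.5 and 141.1 against 135.5 and 125.5 TPM. In the zinc list 1 of 7 was lower, TMEM175, at 13.4 and 17.6 against 10.3 and 8.34 TPM, which is a potassium channel of lysosomes and not a zinc protein. The kinase subunit CSNK2A1 in that list measured 70.7 and 70.4 against 64.0 and 58.0 TPM, and metallothionein MT2A 4.74 and 9.83 against 3.45 and 3.79 TPM. Without control replicate 1, MT2A was called lower (adjusted p = 0.0419) and TRPM7, a magnesium channel, higher (adjusted p = 0.0320). That setting has 1 control library, and 108 of all genes were called lower and 242 higher in it.

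In the magnesium list 1 of 16 was lower at an unadjusted p under 0.05, the magnesium carrier MAGT1. The most abundant were the phosphatase PTP4A2 at 98 and 93.4 against 93.8 and 90.1 TPM and TUSC3, of the oligosaccharyltransferase, at 88.6 and 64.2 against 71.2 and 72.1 TPM. In the calcium list it was 1 of 14, ATP2A2, the calcium pump of the endoplasmic reticulum, at 222 and 204 against 172 and 150 TPM. SARAF, which restrains store-operated calcium entry, was next at 109.1 and 79.8 against 67.7 and 74.6 TPM. The phosphate and sulfate list had 0 of 9 in either direction. In it PAPSS2, a sulfate-activating enzyme, measured 34.1 and 30.3 against 26.4 and 30.1 TPM, and SLC37A4, the glucose 6-phosphate carrier, 27.5 and 29.5 against 25.7 and 20.6 TPM.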

How the data were processed

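RNA of 4 libraries of MHCC-97H cells was sequenced, and the authors deposited TPM per gene with positions, on hg38 by their processing notes. Tools named there, without roles, are TopHat2 2.0.14, HTSeq, DESeq and edgeR (the submitters' processing notes). Use of strand in counting is not stated in the sources at hand. TPM keeps no depth, so no counting interval is given. Genes with a mean of at least 1 TPM over the 4 libraries (14038) entered a two-sided limma test (version 3.58.1, R 4.3.3, eBayes with trend) of log2(TPM + 1). Adjustment was by Benjamini-Hochberg over all of these genes, and the threshold 0.05. Log2 differences are on this scale, which understates the change of low genes. The fit was tested on simulated data. Every fit was repeated after median-ratio scaling to the geometric mean of the libraries (factors 1.19, 1.00, 0.918 and 0.928), with 3 other scalings, 2 other pseudocounts, 2 other filters, 2 other ways to model the variance, a block for replicate number and each library left out.

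Carriers with their own values were those averaging at least 20 TPM, the 10 with the smallest p and the 2 most abundant of each family with a member at 1 TPM, 35 in all, 32 of them tested. Other carriers were chosen after their values were seen. Of each partner list the 2 most abundant genes are given, and SLC9A3R2, PCBP1, TF, COMMD1, MAGT1, MTF1, MT2A and TRPM7 were added after their values were seen. Some genes and their results are not reported here. The carriers and lists were chosen with earlier results of these data known. Promoters came from the RefSeq table of GRCh38.p14 and exonic lengths from GENCODE release 29. Figures were drawn with matplotlib 3.10.9.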

Additional observations from a re-analysis of the deposited data

How the results depend on the processing

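Each group held 2 libraries of unknown depth, and the sign of many small differences depended on the scaling. No carrier passed under any of the 16 alternatives except SLC39A10 without control replicate 1. Carriers below 0 numbered 41 as deposited, 22 with median-ratio scaling, 12 with equal protein-coding sums, 26 with quantile normalization and 13 with equal sums without the 50 most abundant genes. Over all genes 74.7% lay below 0 as deposited and 50.8% with median-ratio scaling, with no share taken for the other scalings. The carriers' median was 0.013, 0.137, -0.00055 and 0.115 in these 4 scalings. In each, 0 carriers were lower and 1 higher at an unadjusted p under 0.05. With median-ratio scaling 1.42% and 3.97% of all genes were so. With no filter, 8 of all 89 carriers were lower at an unadjusted p under 0.05, the 40 averaging under 1 TPM included. Without the variance trend, 2 of 49 were. No share of all genes is given for these 2 settings, so these counts are not set against the 5 of 49. All genes called higher numbered 9 with median-ratio scaling and 8 with quantile normalization. Leaving out each library gave 0 to 242 genes called higher and 0 to 108 lower, 0 to 1 carrier higher, 0 to 1 partner gene in each direction, 0 to 3 carriers higher and 0 to 10 lower without adjustment, and a carrier median of -0.32 to -0.068.

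The replicate numbers are shared by the groups, but the labels do not say that they pair libraries. Deviations of same-numbered libraries from their group means correlated at -0.21 over all genes, and at -0.13 over the carriers. With the replicate block, 29 genes were called higher and 10 lower, and with the block and scaling 98 and 23, with 0 carriers among them. With the block and scaling, 22 carriers lay below 0 and the carrier median was 0.013. In that setting 1 carrier was higher and 0 lower without adjustment, and no share of all genes is given beside it.

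The sign turned to above 0 with median-ratio scaling, with or without the block, for SLC12A7 (0.0137), SLC40A1 (0.0133), SLC20A1 (0.18), SLC39A14 (0.12), SLC11A2 (0.21), SLC12A9 (0.0123), SLC41A3 (0.00454), SLC9A7 (0.12), SLC31A1 (0.0465), SLC30A9 (0.0868), SLC20A2 (0.0664), SLC13A4 (0.0588) and SLC34A3 (0.0495). With equal protein-coding sums it turned for SLC4A2 (0.053), SLC12A7 (0.15), SLC40A1 (0.15), SLC20A1 (0.31), SLC39A14 (0.25), SLC26A11 (0.0738), SLC11A2 (0.34), SLC12A9 (0.14), SLC39A13 (0.0682), SLC39A6 (0.12), SLC41A3 (0.13), SLC9A7 (0.24), SLC31A1 (0.17), SLC30A9 (0.21), SLC20A2 (0.19), SLC13A4 (0.14) and SLC34A3 (0.13). With quantile normalization it turned for SLC4A2 (0.0884), SLC12A7 (0.19), SLC40A1 (0.14), SLC20A1 (0.31), SLC39A14 (0.18), SLC11A2 (0.27), SLC12A9 (0.0534), SLC41A3 (0.0322), SLC9A7 (0.13), SLC31A1 (0.0633), SLC30A9 (0.0702) and SLC20A2 (0.0602). With equal sums without the 50 most abundant genes it turned for SLC4A2 (0.0259), SLC12A7 (0.12), SLC40A1 (0.12), SLC20A1 (0.29), SLC39A14 (0.22), SLC26A11 (0.0475), SLC11A2 (0.32), SLC12A9 (0.12), SLC39A13 (0.042), SLC39A6 (0.0906), SLC41A3 (0.11), SLC9A7 (0.22), SLC31A1 (0.15), SLC30A9 (0.19), SLC20A2 (0.17), SLC13A4 (0.13) and SLC34A3 (0.11). Leaving out 1 library, the sign was not kept for SLC40A1 (-0.59 to 0.14), SLC20A1 (-0.20 to 0.0861), SLC11A2 (-0.15 to 0.10), SLC39A6 (-0.56 to 0.0786), SLC41A2 (-0.18 to 0.28), SLC39A10 (-0.25 to 1.00), SLC30A9 (-0.59 to 0.30), SLC20A2 (-0.34 to 0.0139), SLC24A1 (-0.0593 to 0.31), SLC13A4 (-0.38 to 0.22) and SLC34A3 (-0.30 to 0.11). The cause of these changes was not tested. For SLC39A11 alone, each library was also left out after scaling, chosen after seeing the data.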
